A study of Homo sapiens with 18 samples.

Results

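The 10 genes described here encode enzymes of glycolysis and were taken by name: HK2, PFKP, ALDOA, TPI1, GAPDH, PGK1, PGAM1, ENO1, PKM and LDHA. They are 10 of the 61267 genes in the deposited RNA-seq count table, and 7 of them carried a deposited m6A peak on their own strand. Glycolysis splits glucose into pyruvate in the cytosol and yields ATP and NADH, and lactate dehydrogenase returns NADH to NAD+ by turning pyruvate into lactate. Many tumour cells run the pathway fast even with oxygen present, and the transcription factors HIF-1 and MYC are the textbook activators of its genes. The cells were LoVo, an established human colorectal cancer line. METTL3 carries out the reaction that places N6-methyladenosine (m6A) in RNA, and the study asked what methylation of the METTL3 protein at lysine K513 does, by comparing LoVo cells with METTL3 WT against LoVo cells with METTL3 K513R, in which arginine stands in place of that lysine.

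Each genotype had 3 RNA-seq libraries of total RNA depleted of rRNA, 3 MeRIP inputs and 3 MeRIP immunoprecipitates (IP), 18 libraries in all. For MeRIP, poly(A) RNA was broken into short fragments, a portion was saved as input, and an antibody to m6A was used to pull down methylated fragments from the remainder. No other treatment or time point is named, and how the K513R cells were made, or whether they are 1 clone, is not stated in the labels. Separate cultures are not named in the labels, and p-values here reflect only how these libraries scatter, which may be technical. The comparison of total RNA with inputs sets rRNA-depleted whole-gene counts beside poly(A) counts inside m6A peaks, from libraries made by different protocols.

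RNA-seq totals were 47105235 to 51886164 counts in WT and 47451837 to 53795212 in K513R, and the inputs held 2625446 to 6200264 counts in peaks. Genes named RN7SL, copies of the signal recognition particle RNA, took 1.78% to 2.81% of WT counts and 17.5% to 18.8% of K513R counts, and mitochondrial genes took 3.38% to 4.82% and 0.237% to 0.353%. Of 16 markers of colorectal epithelium, 8 had a mean of at least 5 CPM (counts scaled by library total and TMM factor) and CDX1 was at 0 in every library. The keratins KRT8, KRT18 and KRT19 were the highest, and all of them fell in K513R, from 8821 to 1915, from 2382 to 202 and from 1321 to 102.5 CPM. Of the 8 markers with at least 5 CPM, 6 fell and 2 rose. Those that rose, named after their values were seen, were CDH1, from 84.4 to 174 CPM, and CLDN4, from 4.41 to 8.64 CPM. Scaled by library total without TMM factors, the summed level of the 16 markers was 11050 to 16590 CPM in WT and 2256 to 2698 CPM in K513R. Of 12 tested, 4 genes were higher and 7 lower. On the scale of that sum, 18 markers of fibroblasts, endothelium, blood cells, liver and islet summed to 49.3 to 63.8 CPM in WT and 81.9 to 95.5 CPM in K513R. A mean of 5 CPM or more was reached by 3 of the 18, of which 2 rose and 1, COL3A1, fell, from 20.0 to 15.4 CPM. Of 16 of the 18 tested, 12 were higher and 1 lower (median 1.17). Among the 13 under 5 CPM 10 were higher, such as CD14, from 0.232 to 2.77 CPM, and ALB, from 0.0125 to 1.13 CPM. COL3A1, CD14 and ALB were named after their values were seen. Over all genes tested in total RNA, 41.5% were called higher and 36.9% lower. Of 10 other glycolytic isoenzymes under 5 CPM, 8 were higher too, so a rise at low level was not particular to these markers. Both marker lists moved in K513R, and their part in the results was not tested. Without the 7SL, 7SK and mitochondrial genes, and with library size as the scaling, the falls of LDHA, HK2 and ENO1 in total RNA were -4.38, -3.05 and -2.98 on the log2 scale, and the same number of the 10 genes, 2 higher and 7 lower, passed. In bulk RNA, fewer cells of a kind and less RNA per cell cannot be told apart.

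In total RNA, 7 of the 10 glycolytic enzyme genes fell in K513R cells, 2 rose, and PGK1 did not pass the test. LDHA, HK2 and ENO1, which make lactate, glucose 6-phosphate and phosphoenolpyruvate, fell most, with log2 fold changes of -4.56, -3.23 and -3.16. PFKP, GAPDH, ALDOA and TPI1 fell less, with -2.39, -2.0, -1.43 and -0.83. PGAM1 rose by 0.62 and PKM by 0.28. The median of the 10 was -1.71, beside a median of 0.13 over all genes tested. The test was edgeR's quasi-likelihood test over 30377 genes. The p-values were adjusted by Benjamini-Hochberg over them with a threshold of 0.05. This called 36.9% of all genes lower and 41.5% higher in K513R, so a call alone is common here. The 10 genes together took 0.586% to 0.753% of the counts in WT libraries and 0.288% to 0.350% in K513R libraries.

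**Figure D1:**
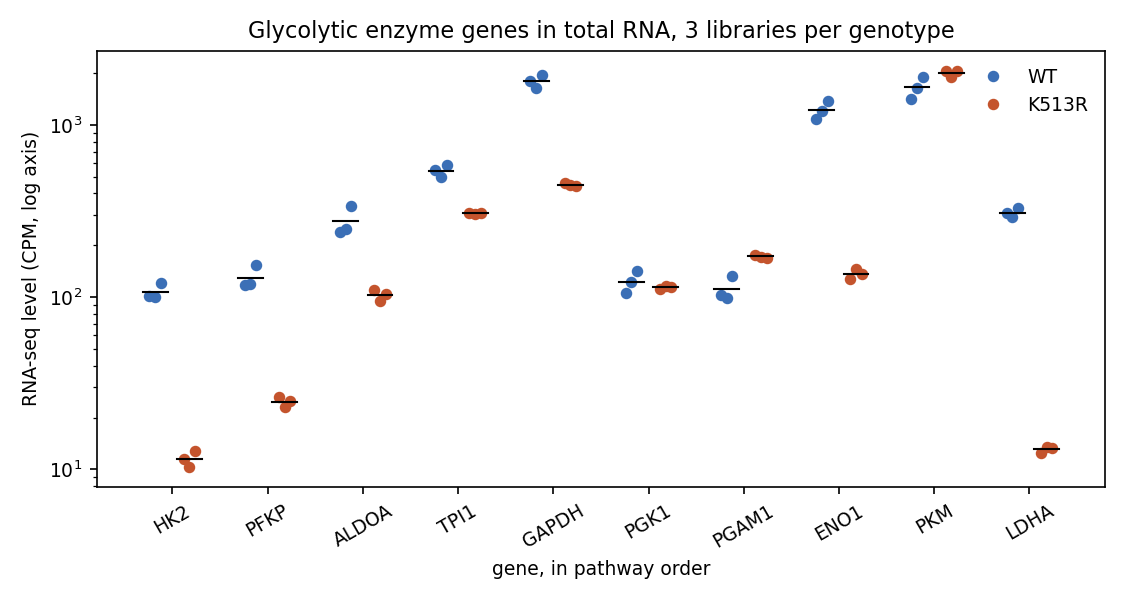
RNA-seq level of each gene (CPM, log axis) in pathway order, 1 point per library, 3 WT and 3 K513R, with the mean as a bar. The groups are far apart for HK2, ENO1 and LDHA, overlap for PGK1, and meet for PKM, whose highest WT library and lowest K513R library both read 1897 CPM.

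The early, energy-investing steps are those of HK2, PFKP and ALDOA. HK2, hexokinase 2, traps glucose in the cell by phosphorylation (chr2:74834127-74893359, plus strand, GRCh38, 19 merged exons). It stood at 101.5, 100.0 and 121 CPM in WT libraries 1 to 3 and at 11.4, 10.3 and 12.7 CPM in K513R. Every K513R library lay below every WT library, and the fall was 9.36-fold (log2 -3.23 ± 0.12 SE, edgeR adjusted p = 3.65e-13). PFKP, the platelet form of phosphofructokinase, catalyses the committed step of glycolysis (chr10:3066333-3137718, plus strand). Its WT libraries read 117, 118.5 and 153 CPM and its K513R libraries 26.5, 23.0 and 24.8 CPM. The groups again did not overlap, and the level was 5.23-fold lower in K513R (log2 -2.39 ± 0.13, edgeR adjusted p = 1.13e-11). ALDOA, aldolase A, cleaves fructose 1,6-bisphosphate into a pair of triose phosphates (chr16:30064164-30070457, plus strand). It read 240.5, 249 and 337 CPM in WT and 109.5, 94.6 and 104 CPM in K513R (log2 -1.43 ± 0.13, edgeR adjusted p = 1.79e-08). The exons of ALDOA are shared with other genes over 54.2% of their length, and a same-strand Ensembl gene over them had nearly the same counts (12800 beside 12885 in WT library 1), so the value belongs to the locus and not to ALDOA alone.

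The triose steps are those of TPI1 and GAPDH. TPI1, triosephosphate isomerase, interconverts the trioses that aldolase makes (chr12:6867119-6870948, plus strand). It had 547, 495 and 589 CPM in WT and 307, 306 and 308 CPM in K513R, 1.77-fold lower without overlap (log2 -0.83 ± 0.11, edgeR adjusted p = 1.90e-06). GAPDH oxidises glyceraldehyde 3-phosphate and makes the NADH of glycolysis (chr12:6534512-6538374, plus strand). It stood at 1797, 1643 and 1952 CPM in WT and 460, 447 and 442 CPM in K513R. The K513R libraries lay far below the WT libraries, 3.999-fold on the fitted mean (log2 -2.0 ± 0.12, edgeR adjusted p = 4.38e-11), for a gene often used as a loading control. An opposite-strand Ensembl gene covers 17.6% of the GAPDH exons, and its counts of 24425 to 29002 in WT and 4555 to 5675 in K513R may hold GAPDH reads. GAPDH also has 65 named processed copies in the table, of which 50 had a count, and their sum came to 0.663% of the GAPDH counts in WT and 1.98% in K513R.

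The lower part of the pathway, from PGK1 to PKM, held the genes that did not fall. PGK1, phosphoglycerate kinase, makes the first ATP of the pathway (chrX:77910739-78129295, plus strand). It read 105, 122 and 142.5 CPM in WT and 112, 116.5 and 115 CPM in K513R. All K513R libraries lay inside the WT range, and the difference did not pass (log2 -0.11 ± 0.12, edgeR adjusted p = 0.404). PGAM1, phosphoglycerate mutase, moves the phosphate group to the carbon that enolase needs (chr10:97426191-97433444, plus strand). It rose from 104, 99.3 and 133 CPM in WT to 177, 171 and 170 CPM in K513R, 1.54-fold with no overlap (log2 0.62 ± 0.12, edgeR adjusted p = 0.000112). PGAM1 has 13 processed copies, whose summed counts were 4.52% of its own in WT and 6.35% in K513R. Adding the copies' counts to each gene changed no call among the 10.

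ENO1, enolase 1, makes phosphoenolpyruvate (chr1:8861000-8879190, minus strand). It fell from 1079, 1206 and 1372 CPM in WT to 127, 146 and 136.5 CPM in K513R, 8.93-fold with no overlap (log2 -3.16 ± 0.13, edgeR adjusted p = 6.47e-13). PKM, muscle pyruvate kinase, makes pyruvate and the second ATP (chr15:72199029-72231819, minus strand). Its libraries read 1418, 1641 and 1897 CPM in WT and 2058, 1897 and 2068 CPM in K513R, so that the groups met at 1897 CPM. The rise of 0.28 ± 0.13 passed narrowly (edgeR adjusted p = 0.0493) and was lost when any library except WT 3 was left out (log2 0.14 to 0.33), nor with library size as the scaling (0.20, adjusted p = 0.193). Gene counts do not separate the PKM1 and PKM2 splice forms. LDHA, lactate dehydrogenase A, reduces pyruvate to lactate (chr11:18394560-18408425, plus strand). It read 306, 293 and 328 CPM in WT and 12.5, 13.4 and 13.3 CPM in K513R. This was the deepest fall of the 10, 23.6-fold (log2 -4.56 ± 0.12, edgeR adjusted p = 1.82e-14).

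In 8 of the 10 genes the 3 libraries of one genotype lay wholly above those of the other. PGK1 and PKM were the others, and over all genes tested 80.3% separated in this way. All 16 alternatives run on the RNA-seq fit kept the call and the direction of HK2, PFKP, ALDOA, TPI1, GAPDH, PGAM1, ENO1 and LDHA. For PGAM1 and TPI1, whose changes are small, the ranges over those alternatives were 0.49 to 0.89 and -0.95 to -0.56.

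Read per kilobase of merged exons, the 10 genes changed rank. In WT, GAPDH was highest at 750 ± 64.5 CPM per kb (SD, n = 3), followed by ENO1 at 234 ± 28.2, TPI1 at 201 ± 17.3 and PKM at 193 ± 28.0, whose order among themselves is within their spread. ALDOA (72.0 ± 13.98), LDHA (51.3 ± 2.88), PGAM1 (44.1 ± 7.24), PGK1 (22.7 ± 3.43), HK2 (18.2 ± 2.01) and PFKP (16.7 ± 2.64) came next. The neighbours LDHA and PGAM1, PGK1 and HK2, and HK2 and PFKP overlapped within 1 SD. In K513R, PKM led at 234 ± 11.2 CPM per kb, ahead of GAPDH at 188 ± 3.89, TPI1 at 114 ± 0.485 and PGAM1 at 67.9 ± 1.42. ALDOA (26.8 ± 1.96) and ENO1 (26.2 ± 1.83) were within their spread, PGK1 stood at 21.0 ± 0.423, and PFKP, LDHA and HK2 were lowest at 3.19 ± 0.224, 2.17 ± 0.0833 and 1.94 ± 0.204, the last of these within their spread.

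As a share of the summed level per kilobase of the 10 genes, which needs no scaling between libraries, GAPDH went from 46.8% ± 1.86 to 27.4% ± 0.555 (SD, n = 3) and PKM from 12.01% ± 1.05 to 34.2% ± 1.02. ENO1 went from 14.6% ± 0.972 to 3.83% ± 0.344 and LDHA from 3.21% ± 0.135 to 0.317% ± 0.0178. PGAM1, which sits just before ENO1 in the pathway, went from 2.74% ± 0.181 to 9.92% ± 0.195. TPI1 held 12.6% ± 0.572 and then 16.6% ± 0.291, although its CPM fell. The exonic lengths count every annotated exon, so levels of genes with long alternative exons are understated in both genotypes alike.

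**Figure D2:**
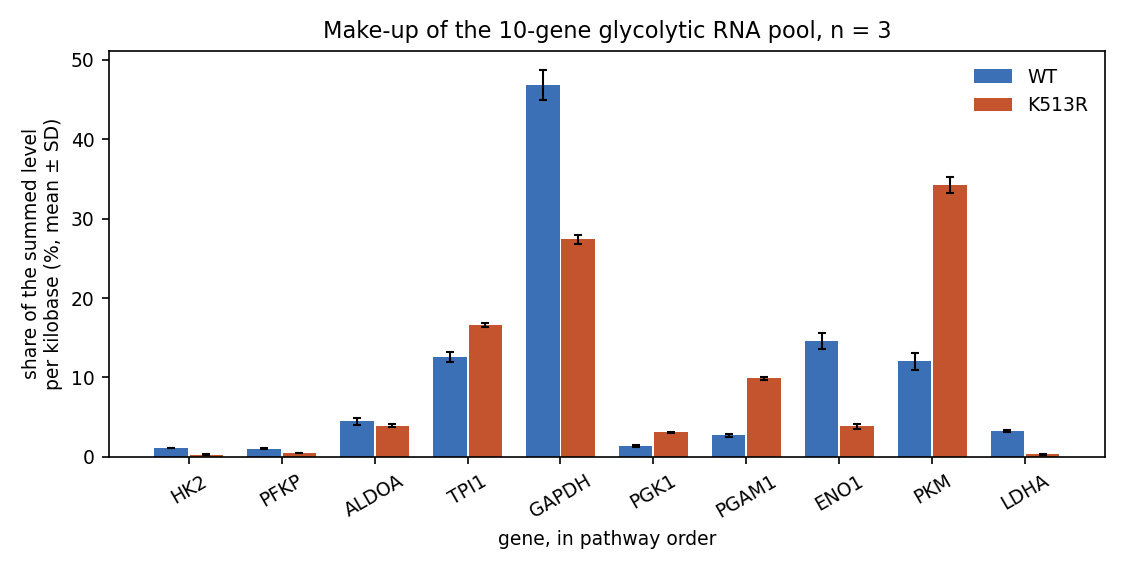
Share of each gene in the summed level per kilobase of the 10 genes (percent, mean ± SD over 3 libraries; bars from 0) in WT and K513R. GAPDH is the largest share in WT at 46.8%, and PKM is the largest in K513R at 34.2%.

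The start regions of these genes were read for the core of the hypoxia-response element, ACGTG or GCGTG, and for the E-box CACGTG, on both strands. Those are the letters in which HIF-1 and MYC are known to bind, and an E-box here also counts as a pair of overlapping core matches. In the 250 bases before the 18 RefSeq starts of the 10 genes (GRCh38.p14), 72.2% of windows held a core match and 22.2% an E-box, beside 43.2% and 6.34% of the 35116 windows of all genes. Each of these motifs holds the pair CG, and the 18 windows were 53.2% to 81.6% G and C. The windows of all genes were not matched for base content or expression, so these shares do not show an excess of binding sites. The windows of LDHA, PGK1 and PGAM1 are printed because these genes fell most, did not pass and rose. Capitals mark the core matches, and the reading is 5′ to 3′ along the gene.
LDHA, chr11:18394313-18394562 (plus strand): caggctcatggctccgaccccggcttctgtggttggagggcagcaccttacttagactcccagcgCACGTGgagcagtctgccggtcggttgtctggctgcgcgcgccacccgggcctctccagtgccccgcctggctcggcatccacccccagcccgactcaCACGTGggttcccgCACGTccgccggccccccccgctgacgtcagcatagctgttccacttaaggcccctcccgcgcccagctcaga
PGK1, chrX:78103998-78104247 (plus strand): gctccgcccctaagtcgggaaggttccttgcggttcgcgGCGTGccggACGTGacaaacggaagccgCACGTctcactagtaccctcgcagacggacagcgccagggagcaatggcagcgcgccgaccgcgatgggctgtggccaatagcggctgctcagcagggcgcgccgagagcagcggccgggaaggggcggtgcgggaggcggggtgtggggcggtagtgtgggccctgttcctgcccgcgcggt
PGAM1, chr10:97427568-97427817 (plus strand): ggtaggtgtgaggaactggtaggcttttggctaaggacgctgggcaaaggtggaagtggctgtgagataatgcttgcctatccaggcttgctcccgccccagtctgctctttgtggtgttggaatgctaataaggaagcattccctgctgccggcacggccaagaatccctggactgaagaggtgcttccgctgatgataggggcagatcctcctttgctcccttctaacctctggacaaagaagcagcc
The printed LDHA window held 5 core matches and 2 E-boxes, the PGK1 window 3 core matches and no E-box, and the PGAM1 window none of either. A second LDHA start, at chr11:18396101-18396350, had 1 core match and no E-box. The windows of PGK1 and PGAM1 lie inside those genes as the count table draws them, and the bases before the table's own starts were not read. The 2 starts of HK2 had 3 and 6 core matches, and the 4 starts of PFKP, which fell 5.23-fold, had 0, 0, 1 and 3. ENO1, which fell 8.93-fold, had 2 and no E-box, fewer than PGK1. GAPDH had 2, TPI1 had 0 and 2, ALDOA had 1, 2 and 1, and PKM had 0. The printed windows were picked by outcome, and whether matches go with the change was not tested. The letters describe these windows, and no binding was measured in these data.

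In the poly(A) inputs the same genes looked different. Input counts were summed per gene over its same-strand peaks, so only genes with a peak can be read: GAPDH, PGAM1 and LDHA had none, and PGK1 had 1 input count over all 6 libraries and was not tested. Of the 6 genes tested, ENO1 fell, PKM rose, and HK2, PFKP, ALDOA and TPI1 did not pass. The median of the 6 was -0.11, beside 0.02 over 8471 genes. The edgeR test called 13.1% of all genes lower and 13.6% higher in the inputs. This was 1113 genes lower and 1152 higher, and with library size only it was 784 and 1575, with the calls of ENO1 and PKM unchanged.

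HK2, which was 9.36-fold lower in total RNA, read 20.4, 19.0 and 20.6 CPM in the WT inputs and 20.6, 19.0 and 32.7 CPM in the K513R inputs. The groups overlapped (log2 0.24 ± 0.22, edgeR adjusted p = 0.441), on 38 to 77 counts per library. PFKP read 19.5, 17.7 and 19.8 CPM in WT and 15.6, 20.0 and 14.4 CPM in K513R (log2 -0.19 ± 0.21, edgeR adjusted p = 0.539). It too overlapped. ALDOA rested on only 8 to 46 counts per library, with 9.31, 8.84 and 12.3 CPM in WT and 8.31, 16.5 and 4.44 CPM in K513R (log2 -0.07 ± 0.35, edgeR adjusted p = 0.911). The K513R inputs of ALDOA alone ran from 4.44 to 16.5 CPM and spanned the whole WT range.

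TPI1 had 422, 423 and 419 CPM in the WT inputs and 383, 373 and 384 CPM in the K513R inputs. The groups did not overlap, yet the difference of -0.15 ± 0.09 did not pass (edgeR adjusted p = 0.220). ENO1 read 175, 201 and 204 CPM in WT and 172, 126 and 124 CPM in K513R (log2 -0.45 ± 0.13, edgeR adjusted p = 0.0143), so its direction was that of total RNA and its size much smaller. PKM read 531, 450 and 524 CPM in WT and 594, 658 and 727 CPM in K513R (log2 0.39 ± 0.10, edgeR adjusted p = 0.00900). The libraries of the genotypes did not overlap for TPI1, ENO1 and PKM, 3 of 6, beside 42% of all genes with a peak. The ENO1 call was lost without WT library 2 or 3 or K513R library 2 or 3 (log2 -0.42, -0.41, -0.37 and -0.36), and the PKM call without WT library 2 (0.32, adjusted p = 0.0747). With peaks at least 50% exonic, neither passed (ENO1 -0.38 and PKM 0.27). TPI1, whose only peak was 35.5% exonic, then had no value.

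**Figure D3:**
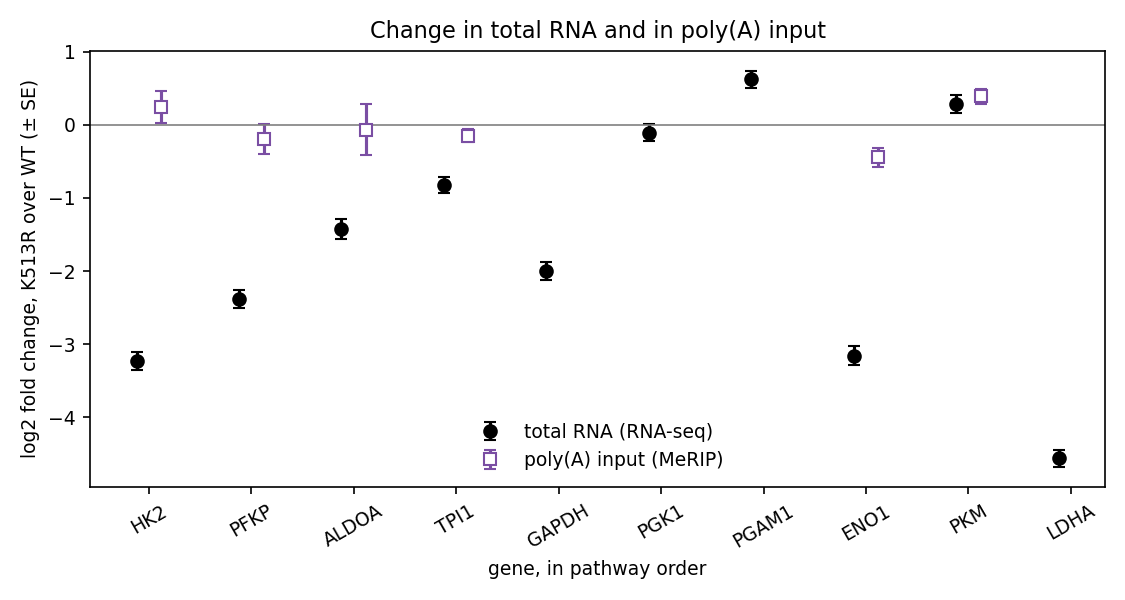
log2 fold change, K513R over WT, with its standard error, in total RNA (filled circles) and in poly(A) inputs (open squares) for the 10 genes in pathway order, 3 libraries per genotype and assay. HK2 and ENO1 are at -3.23 and -3.16 in total RNA and at 0.24 and -0.45 in the inputs, and GAPDH, PGK1, PGAM1 and LDHA have no input value.

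The difference between the assays was tested directly, as the RNA-seq change minus the input change in 1 edgeR model of 12 libraries and 8376 genes. It was -3.46 ± 0.24 for HK2 (edgeR adjusted p = 1.39e-10), -2.71 ± 0.19 for ENO1 (1.89e-10) and -2.19 ± 0.23 for PFKP (6.35e-08). It was -1.35 ± 0.36 for ALDOA (edgeR adjusted p = 0.00268) and -0.68 ± 0.15 for TPI1 (0.000364). PKM, at -0.11 ± 0.19, did not pass (edgeR adjusted p = 0.610). The 6 genes had a median of -1.77. These values have to be read against all genes with a peak, whose median was -0.51, with 47.5% called lower and 19.1% called higher. When the scaling was taken from the genes with a peak alone, an alternative added after the data were seen, the median of all genes was -0.04 and 2562 were higher and 2782 lower, in place of 1598 and 3982. With upper-quartile factors, 2128 were higher and 3214 lower. With factors from the genes with a peak, HK2, ENO1, PFKP and ALDOA kept their calls. TPI1 then did not pass (-0.21, edgeR adjusted p = 0.213), and PKM turned to 0.35 (edgeR adjusted p = 0.108). ALDOA did not pass without K513R input library 2 (-0.83, adjusted p = 0.0597).

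The m6A peaks of these genes were read next. The authors' peak table lists 39708 peaks, named for the genotype they were called in, and 21 of them overlapped exons of a member on its strand, 11 in the WT list and 10 in the K513R list. Merged where they overlap, they made 13 sites on 7 genes, of which 11 had enough counts to be tested. Enrichment is log2 of IP over input CPM, with 0.5 added to each. Its median over all 27252 tested peaks was 0.212 to 0.258 in each of the 6 pairs of libraries. TMM factors scale the IP and input libraries separately, so a value of 0 is not an absence of enrichment, and only differences between genotypes and between sites are read here.

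Enrichment was higher in K513R at 4 of the 11 sites (PFKP, TPI1 and 2 in ENO1), and the other 7 did not pass. At an unadjusted p under 0.05 the second PFKP site would also count, as lower. Each site was read in its peak with the highest authors' fold enrichment, at these 4 a K513R-list peak, and TPI1 had no other. Windows picked on IP signal in K513R libraries can favour a rise there. The overlapping WT-list peak at PFKP gave 1.44 and did not pass (edgeR adjusted p = 0.072). Those at ENO1 gave 0.95 and 1.04 and passed (edgeR adjusted p = 0.00923 and 0.00621). The edgeR model called 13% of all peaks higher and 9.61% lower. That balance depends on the scaling: it was 3543 peaks higher and 2620 lower, but 1813 higher and 3928 lower with library size only, where 3 sites of these genes were higher and 1 lower. The first PFKP peak (chr10:3067590-3067681, exon 2 of 29) had -0.79, 0.02 and -0.42 in WT and 0.57, 0.73 and 1.42 in K513R. All K513R pairs stood above all WT pairs (change 1.43 ± 0.45, edgeR adjusted p = 0.0260), on 10 to 24 input counts per library. The second PFKP peak (chr10:3069277-3070312), only 17.5% exonic, pointed the other way at -0.80 ± 0.34 and did not pass (edgeR adjusted p = 0.0924), though it passed with library size as the scaling (-1.02, adjusted p = 0.0473).

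The TPI1 peak (chr12:6868933-6869104, exons 2 to 3 of 7, 35.5% exonic) had -1.01, -1.12 and -1.05 in WT and -0.36, -0.10 and -0.53 in K513R. It rose by 0.74 ± 0.17 (edgeR adjusted p = 0.00589), yet stayed under the median of all peaks in every pair, and the authors' fold enrichment was 1.35. Both ENO1 sites are long and reach into introns, being 12.3% exonic (chr1:8873955-8875916) and 53.7% exonic (chr1:8878247-8878920, at the 5′ end). The first had -1.87, -1.92 and -1.98 in WT and -1.40, -0.81 and -0.52 in K513R (change 1.00 ± 0.22, edgeR adjusted p = 0.00357). It too stayed under the median of all peaks in every pair, and its WT libraries held 255 to 285 IP counts beside 420 to 515 input counts. The second had -0.51, -0.57 and -0.92 in WT and -0.19, 0.58 and 0.71 in K513R (change 1.04 ± 0.25, edgeR adjusted p = 0.00621). In both the genotypes separated, and the authors' deposited table gives log2 differences of 0.81 and 0.86 for them, K513R over WT by the sign. Leaving out 1 replicate lost the call at the PFKP site for WT 1, WT 3, K513R 2 and K513R 3 (1.19 to 1.55), as did library size as the scaling (1.24, adjusted p = 0.0639), and at TPI1 for WT 2, WT 3 and K513R 2 (0.62 to 0.74) and at the second ENO1 site for WT 3 (0.90).

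HK2 carried 3 peaks, all in the WT list and all within its last exon, 19 of 19, at 63.7%, 70.7% and 79.1% of the exonic length. The authors gave the first (chr2:74890999-74891418) a fold enrichment of 9.32, and their table lists 3.42 and 1.36 for the others. Its enrichment was 0.24, 0.26 and 0.19 in WT and -0.15, 0.01 and -0.28 in K513R. The libraries separated, but the change of -0.38 ± 0.46 did not pass (edgeR adjusted p = 0.588), on 12 to 23 input counts per library. The other HK2 peaks changed by -0.60 ± 0.58 and -0.22 ± 0.44 and did not pass (edgeR adjusted p = 0.479 and 0.753). All 3 peaks had IP counts in K513R as well, 18 to 28 at the first of them beside 43 to 59 in WT.

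ALDOA and PKM each had a peak at the very end of the last exon, at 97.3% and 98.4% of the exonic length. In general m6A is often found near stop codons and in last exons, and the distance of these peaks from the stop codon was not measured. The ALDOA peaks lie on exons of 2 same-strand genes, so their input and IP counts belong to the locus. The ALDOA site (chr16:30070294-30070414) was the only one of the 11 with mean WT enrichment above the median of all peaks by more than 0.5, at 1.37, 1.04 and 0.59. In K513R it read 1.64, -0.03 and 2.47, so the groups overlapped and the change of 0.20 ± 0.44 did not pass (edgeR adjusted p = 0.778). The PKM site (chr15:72199028-72199297) had 0.02, 0.22 and 0.17 in WT and 0.45, 0.38 and 0.11 in K513R (change 0.18 ± 0.23, edgeR adjusted p = 0.588). The inner PKM site (chr15:72206852-72207244) had -0.88, -0.80 and -0.89 in WT and -0.13, -0.56 and -0.79 in K513R. The pairs did not overlap, but the change of 0.37 ± 0.19 did not pass (edgeR adjusted p = 0.160), except without K513R replicate 3 (0.52, adjusted p = 0.0405). A second ALDOA site and the PGK1 site had too few counts for a test.

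**Figure D4:**
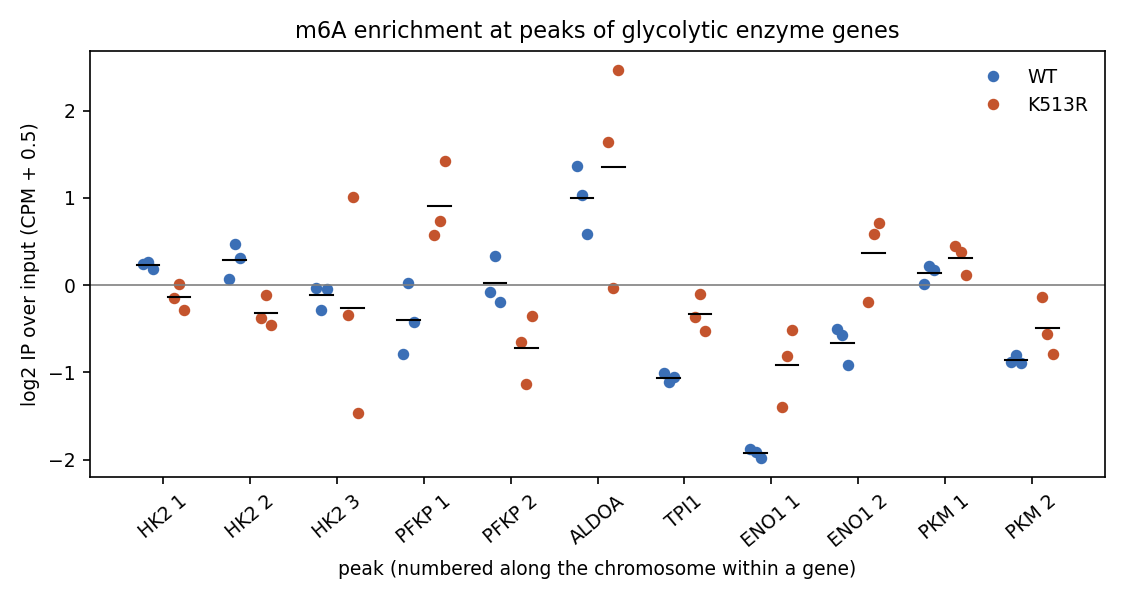
log2 IP over input (CPM + 0.5) at the 11 tested sites, 1 point per replicate number, 3 WT and 3 K513R, with the mean as a bar and sites numbered along the chromosome within a gene. The K513R points lie above the WT points at the first PFKP site, at TPI1, at both ENO1 sites and, by a narrow gap, at the second PKM site, and spread widely at the third HK2 site and at ALDOA.

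The rest of the pathway moved in both directions in total RNA. The list counts that follow stand beside 41.5% of all genes tested called higher and 36.9% called lower in total RNA. In the inputs these shares were 13.6% and 13.1%. Of 20 other glycolytic isoenzymes tested, 14 rose and 4 fell (median 1.28). The 10 with a mean of at least 5 CPM split into 6 that rose and 4 that fell (median 0.38), and of the 10 below that level 8 rose (median 2.25). BPGM, which makes 2,3-bisphosphoglycerate, rose from 11.98 ± 0.648 to 51.8 ± 1.95 CPM (log2 2.11), and ADPGK, a glucokinase that uses ADP, rose from 33.0 ± 4.01 to 117 ± 11.5 CPM (1.83). HK1, the housekeeping hexokinase, fell from 159 ± 16.6 to 37.9 ± 1.48 CPM (-2.07). In the inputs 5 of these genes were tested, PFKM, GAPDHS, ENO2, ADPGK and BPGM, with changes of -0.56 to 0.46 that did not pass (edgeR adjusted p of 0.254 to 0.941).

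Of 13 glucose and lactate transport genes tested, 5 rose and 2 fell (median 0.25). BSG, the chaperone that brings lactate transporters to the membrane, rose from 328 ± 49.9 to 2040 ± 265 CPM (log2 2.64), and the glucose transporter SLC2A8 rose from 4.23 ± 0.682 to 16.3 ± 1.39 CPM (1.94). The lactate transporter SLC16A1 fell from 49.2 ± 4.01 to 22.2 ± 2.16 CPM (-1.15). Of 18 regulators tested, 12 fell and 4 rose (median -0.44). MYC fell from 132 ± 14.1 to 9.49 ± 0.276 CPM (-3.80), and ARNT, the partner subunit of HIF-1, fell from 42.8 ± 2.68 to 5.16 ± 0.503 CPM (-3.05). PFKFB3, which makes the activator of phosphofructokinase, fell from 74.7 ± 6.63 to 11.3 ± 0.709 CPM (-2.72). In the inputs MYC and PFKFB3 stood at 0.11 and 0.14, neither past the threshold (edgeR adjusted p = 0.419 and 0.601). Of 11 regulators tested there, 4 were higher and 1 was lower.

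All 9 pentose phosphate genes passed, 4 up and 5 down (median -0.71), where 41.5% of all genes were called higher and 36.9% lower. TKT, transketolase, fell from 239 ± 34.4 to 19.3 ± 0.635 CPM (log2 -3.63), TALDO1, transaldolase, from 59.8 ± 7.95 to 21.1 ± 2.21 CPM (-1.50) and RPE, an epimerase of the same branch, from 36.3 ± 4.46 to 12.9 ± 0.719 CPM (-1.50). Of 6 gluconeogenesis genes tested, 4 rose (median 1.28), and PC and FBP2 had unadjusted p-values of 0.212 and 0.279. PCK2, mitochondrial phosphoenolpyruvate carboxykinase, rose from 61.0 ± 5.05 to 292 ± 40.5 CPM (2.26). SLC37A4, the glucose 6-phosphate carrier, rose by 1.62 and G6PC3, a glucose 6-phosphatase, by 0.94.

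Of 23 genes of pyruvate oxidation and the citric acid cycle, 10 fell and 6 rose (median -0.21). IDH3A, a subunit of isocitrate dehydrogenase, fell by 1.93, PDHB of pyruvate dehydrogenase by 1.88 and MPC2 of the mitochondrial pyruvate carrier by 1.60. Of 20 hypoxia-responsive genes outside glycolysis, 8 rose and 8 fell (median -0.00). DDIT4, VEGFA and EGLN1 fell most, with log2 fold changes of -2.91, -2.19 and -2.03, and EGLN1, the oxygen-sensing prolyl hydroxylase, was higher in the inputs by 0.69 ± 0.10 (edgeR adjusted p = 0.000102).

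**Figure D5:**
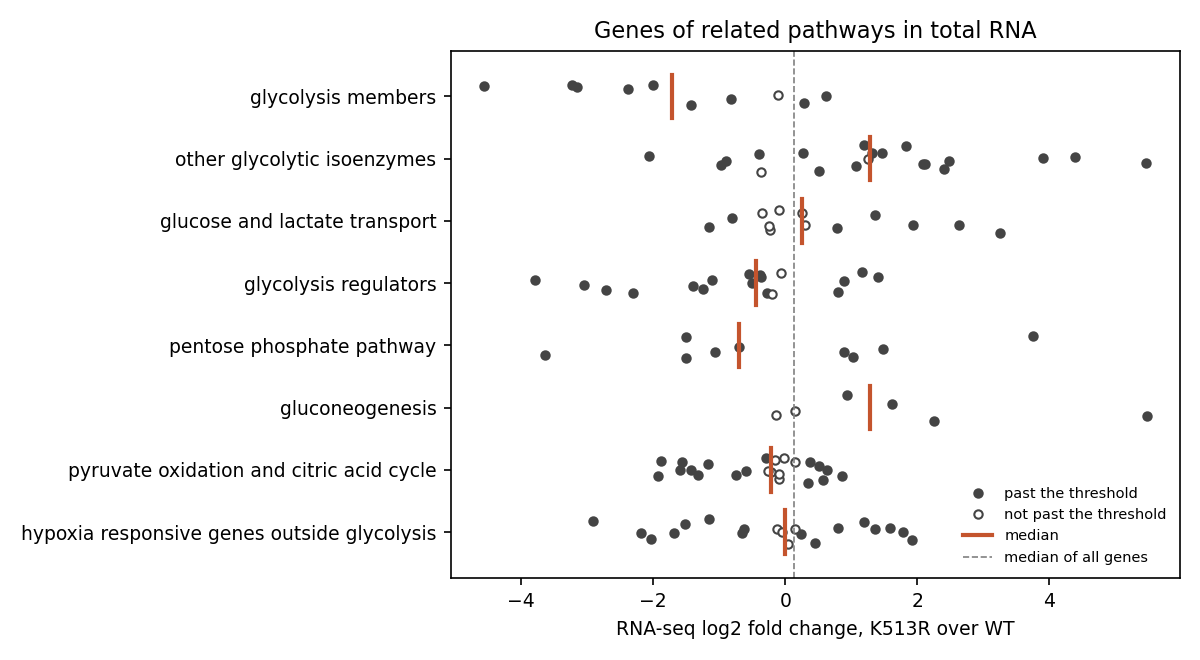
RNA-seq log2 fold change (K513R over WT) of every tested gene of 8 lists, 1 point per gene, filled where edgeR's adjusted p is under 0.05, with the list median as a bar and the median of all genes, 0.13, as a dashed line. The 10 glycolysis members, all above 5 CPM, have a median of -1.71, and the other glycolytic isoenzymes one of 1.28 over all 20 and 0.38 over the 10 with a mean of at least 5 CPM.

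The mean profile of the 6 members measured in both assays, low in K513R total RNA and near level in K513R inputs, was set against 6773 other genes over 12 libraries. By root mean square distance on the log2 scale, the genes most like it were NAT8L (0.0738), ANKRD27 (0.0892), MCM6 (0.0906), ZNF786 (0.102) and KDM4A (0.107). Their RNA-seq changes were -1.79, -1.77, -1.91, -1.72 and -1.85, and their input changes were -0.08, -0.08, -0.06, 0.01 and -0.11, which did not pass (edgeR adjusted p of 0.627 to 0.969).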

How the data were processed

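Total RNA was measured by RNA-seq in 6 LoVo libraries and MeRIP input and IP RNA in 12, grouped by genotype from the labels. The authors deposited raw counts per gene and raw counts per m6A peak. Per the file headers, the deposited fold enrichment is the IP to input ratio of each peak, the deposited p-value and FDR columns belong to each peak or to the authors' comparison of genotypes, the deposited score equals the fold enrichment, and the deposited difference is a log2 value. Per the submitters' processing notes, the build was GRCh38 and the tools included edgeR 3.12.1, featureCounts (Subread 1.5.1), Trimmomatic 0.36, deepTools and bedtools. For the aligner, the peak caller and the strand setting, nothing is given in the sources used here.

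The main tests used R 4.3.3 and its package edgeR 4.0.16 (robust quasi-likelihood, TMM factors, filterByExpr by group, two-sided, Benjamini-Hochberg over each whole table). Variation between replicate libraries beyond counting noise, which may be technical, was read from edgeR's common dispersion as a coefficient of variation. It came to 13.7% for RNA-seq, 10.6% for inputs, 10.8% for the model of both and 15.2% for peaks. CPM carry TMM factors, except in the summed levels of the marker lists. Inputs were summed over non-overlapping same-strand peaks that overlap a gene's exons by at least 1 base, taking the peak with the highest score where peaks overlap, and the RNA-seq and input changes were compared by an interaction term with the effective library sizes of each whole table. The models were also run on simulated counts in which few features changed, in balanced directions. Most genes were called in these RNA-seq data, so that run does not vouch for the scaling here. DESeq2 1.42.0, limma 3.58.1, other factors and filters, and each library left out in turn were alternatives. Replicate libraries differed beyond counting noise (chi-square per degree of freedom of 8.56 to 77.2). Input and IP of 1 number come from 1 RNA sample per the labels, and deviated together (correlation 0.0910 to 0.386). WT and K513R numbers did so for 1 pair of RNA-seq libraries but not for every pair (-0.152, 0.385 and 0.0970 in RNA-seq, -0.149 to 0.0258 in inputs), and were not taken as pairs.

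The 10 genes and all lists were chosen with earlier results of these data known. Genes named beside them are the 3 largest changes past the threshold in each list with a mean of at least 5 CPM, the 3 highest epithelial markers, and the 5 genes nearest in profile among those of at least 5 CPM tested in both assays. Markers named outside this rule were picked after their values were seen. Promoter windows come from RefSeq (GRCh38.p14), which matched all 10 genes.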

Additional observations from a re-analysis of the deposited data

Results flagged for a closer look

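In 5 of the 6 genes measured in both assays the change between genotypes differed between total RNA and poly(A) inputs by the test of the difference itself (edgeR interaction term). The RNA-seq change minus the input change was -3.46 for HK2, -2.71 for ENO1, -2.19 for PFKP, -1.35 for ALDOA and -0.68 for TPI1 on the log2 scale (edgeR adjusted p of 1.39e-10, 1.89e-10, 6.35e-08, 0.00268 and 0.000364). All 5 were lower, as were 47.5% of all genes with a peak, whose median was -0.51. With factors from the genes with a peak 4 of the 5 passed, and TPI1 did not (-0.21, adjusted p = 0.213). The TPI1 input came from a window that was 35.5% exonic. ALDOA did not pass without K513R input library 2 (-0.83, adjusted p = 0.0597).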

How the results depend on the processing

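Replicate number was added as a block to the fits of RNA-seq, inputs and the assay comparison. In the peak fit the block was the RNA sample, which paired each input with its own IP. The main peak test did not pair them. With these blocks 23420 genes were called in RNA-seq (23800 without), 1958 in the inputs (2265), 5564 in the assay comparison (5580) and 8064 peaks (6163). No call of the 10 genes or their peaks changed. Upper-quartile factors moved the median of all genes from 0.13 to 0.39 in RNA-seq and from -0.51 to -0.23 in the assay comparison, where library size gave -0.70, and library size moved the inputs from 0.02 to 0.13. PGK1 in RNA-seq turned to 0.16 with upper-quartile factors, 0.019 under a filter of 1 CPM on the mean and 0.071 without 7SL, 7SK and mitochondrial genes, passing in none of these. With library size only, ALDOA in the inputs turned to 0.041 and the last-exon sites of ALDOA and PKM to -0.025 and -0.046. The assay difference of PKM turned to 0.17 with upper-quartile factors and 0.35 with factors from the genes with a peak. Leaving out 1 library gave -0.0092 to 0.36 for HK2 and -0.60 to 0.21 for ALDOA in the inputs, and -0.73 to 0.27 for the third HK2 site and -0.20 to 1.02 for the ALDOA site. It gave 1456 (without WT 2) to 2842 genes called in the inputs (2265 in all libraries) with 0 to 2 of the members, and 2048 (without WT 1) to 7509 peaks called (6163 in all libraries) with 1 to 4 sites of the members. Without WT 2, WT 3 and K513R 2 the peaks called were 2355, 2143 and 3269. Keeping peaks above the median of the authors' score gave 1439 calls and 0 member sites, with fewer peaks tested. Only the first HK2 site and the last-exon ALDOA site were still tested. The 4 called sites fell under the filter, so this setting does not test them. Peaks at least 50% exonic left 0 members called in the inputs and 2 member sites. The cause of the other changes was not tested. Counts of 8 to 77 per input library limit HK2, PFKP and ALDOA, and 3 libraries a group limit every test.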

Other observations

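Ratios between enzymes within a library, per kilobase, need no scaling between libraries. They were chosen after some values were seen and are given without a test. The log2 ratio of LDHA to LDHB, the subunit that favours lactate oxidation, was -2.49, -2.46 and -2.30 in WT and -6.05, -6.11 and -6.06 in K513R, while LDHB itself fell from 816 ± 32.3 to 436 ± 24.8 CPM. HK2 to HK1 went from -0.35 ± 0.0408 to -1.51 ± 0.0961 (SD, n = 3), although both genes fell. PFKP to PFKL, the liver form, went from 0.52 ± 0.0681 to -2.37 ± 0.0155, as PFKL rose from 103 ± 11.2 to 147 ± 10.9 CPM.

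Between neighbouring steps, the log2 ratio of PGAM1 to ENO1 went from -2.41 ± 0.133 to 1.38 ± 0.125 and that of PKM to ENO1 from -0.28 ± 0.0374 to 3.16 ± 0.164. PKM to LDHA went from 1.90 ± 0.174 to 6.75 ± 0.112 and GAPDH to TPI1 from 1.90 ± 0.00815 to 0.72 ± 0.0321. In each of these ratios the 3 WT libraries lay wholly on one side of the 3 K513R libraries. Such separation is common here: the levels of 80.3% of all genes tested separated in this way. Ratios of other genes were not taken.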
